A study of Mus musculus with 12 samples.

Results

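The exosome marker and biogenesis genes are 10 genes whose products mark extracellular vesicles or help to make and release them: Cd63, Cd9, Cd81, Tsg101, Pdcd6ip, Sdcbp, Hgs, Vps4b, Rab27a and Rab27b. They were taken by gene name from a table of 34745 genes, and each of the 10 names was found on 1 row. RNA was sequenced from MLE-12 cells, a mouse line of alveolar type II (AT II) cells, in 4 groups of 3 libraries. The LPS group received 100 ng/mL LPS in 21% oxygen, and the LPS + M2-Exo group received the same with 10 µg/mL M2-Exo. The Hyp group was kept in 85% oxygen with no LPS, and the Hyp + M2-Exo group had the same oxygen with the same dose of M2-Exo. Sample titles give 24 h for all 4 groups. M2-Exo are exosomes prepared with an isolation kit from the medium of MH-S cells, a mouse alveolar macrophage line turned to the M2 state with IL-4, and they were added after the injury. By the labels, every library came from injured cells of 1 line, and none from untreated cells. The question was whether cells that were given M2-Exo changed the expression of their own vesicle genes.

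Exosomes arise when the membrane of a late endosome buds inward, forms a multivesicular body and then fuses with the cell surface. CD63, CD9 and CD81 are tetraspanins, membrane proteins that are widely used to mark vesicles. CD63 sits mostly in late endosomes and lysosomes, whereas CD9 and CD81 sit mostly at the cell surface. The ESCRT machinery sorts cargo and drives the budding: HGS belongs to ESCRT-0, which gathers ubiquitinated cargo, TSG101 belongs to ESCRT-I, and VPS4B is the ATPase that takes ESCRT-III apart. ALIX, the product of Pdcd6ip, and syntenin, the product of Sdcbp, link syndecans to this machinery. RAB27A and RAB27B are small GTPases that dock multivesicular bodies at the cell surface. AT II cells also store surfactant in lamellar bodies, which are organelles of the same endosomal and lysosomal family.

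The total count of a library lay between 16021833 and 24074616. All 10 genes passed the filter on low counts in every comparison, with 385 to 10477 counts in a library, the fewest for Rab27b. The AT II label was checked against marker genes. In CPM (counts scaled to the size of the library), the lung epithelial regulator Nkx2-1 had means of 172.7 in LPS and 175.8 in LPS + M2-Exo, against 39.7 in Hyp and 38.4 in Hyp + M2-Exo. In the same order of groups, the surfactant gene Sftpc, which marks AT II cells, had 22.4, 22.5, 11.3 and 13.1 CPM, Sftpb 1.503, 1.62, 4.66 and 4.84 CPM, Krt8 157.3, 143.1, 142.7 and 137.3 CPM, and Cdh1 16.4, 17.3, 3.44 and 3.26 CPM. The other 3 of the 8 epithelial markers were near 0, with at most 4 counts of Krt18 and 1 of Sftpd in any library and at most 1.18 CPM of Epcam. Of 16 macrophage markers, which were measured because M2-Exo come from macrophages, 2 (Chil3 and Retnla) were at 0 and Arg1 and Siglecf had at most 3 counts everywhere. Mrc1 had at most 1.53 CPM, Marco had a mean of 3.79 CPM in LPS but at most 1 count in Hyp, and Itgax had 0.054 CPM in LPS and 0.91 CPM in Hyp. Csf1r, Adgre1, Ptprc, Lyz2 and Itgam had reads in all 12 libraries, those without M2-Exo included. Their means were 107.4, 77.6, 50.1, 102.8 and 33.1 CPM in LPS and 19.4, 12.9, 8.83, 26.0 and 7.97 CPM in Hyp. The markers therefore go only in part with the AT II label, and the identity of the cells was not settled by them. The summed level of the macrophage markers was 437.0 to 482.8 CPM in LPS, 334.3 to 391.3 in LPS + M2-Exo, 115.2 to 120.3 in Hyp and 88.9 to 134.3 in Hyp + M2-Exo. The 8 epithelial markers summed to 363.5 to 375.3 CPM in LPS and 195.7 to 208.5 CPM in Hyp. The macrophage sum thus stood above the epithelial sum in LPS and below it in Hyp. The labels do not say whether the libraries of a group came from separate cultures, so p-values measure only the spread between these libraries. In bulk RNA, fewer cells of a type and less RNA per cell cannot be told apart.

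Levels of different genes were compared per length, as FPKM. In the LPS group the order was Cd63, Cd9, Cd81, Pdcd6ip, Hgs, Sdcbp, Tsg101, Vps4b, Rab27a and Rab27b, from 226.0 ± 7.21 FPKM for Cd63 to 1.92 ± 0.12 FPKM for Rab27b (SD, n = 3). No neighbours in this order overlapped in their 3 libraries. The order was the same in LPS + M2-Exo, again with no overlap. In Hyp the order was Cd63, Cd9, Pdcd6ip, Hgs, Cd81, Sdcbp, Tsg101, Vps4b, Rab27b and Rab27a, so Cd81 stood lower and Rab27b stood above Rab27a. Hyp + M2-Exo had the order of Hyp, except that Pdcd6ip overlapped Hgs and Cd81 overlapped Sdcbp. The tetraspanins were therefore the most abundant of the 10 genes under LPS and the RAB27 genes the least abundant in all 4 groups.

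**Figure D1:**
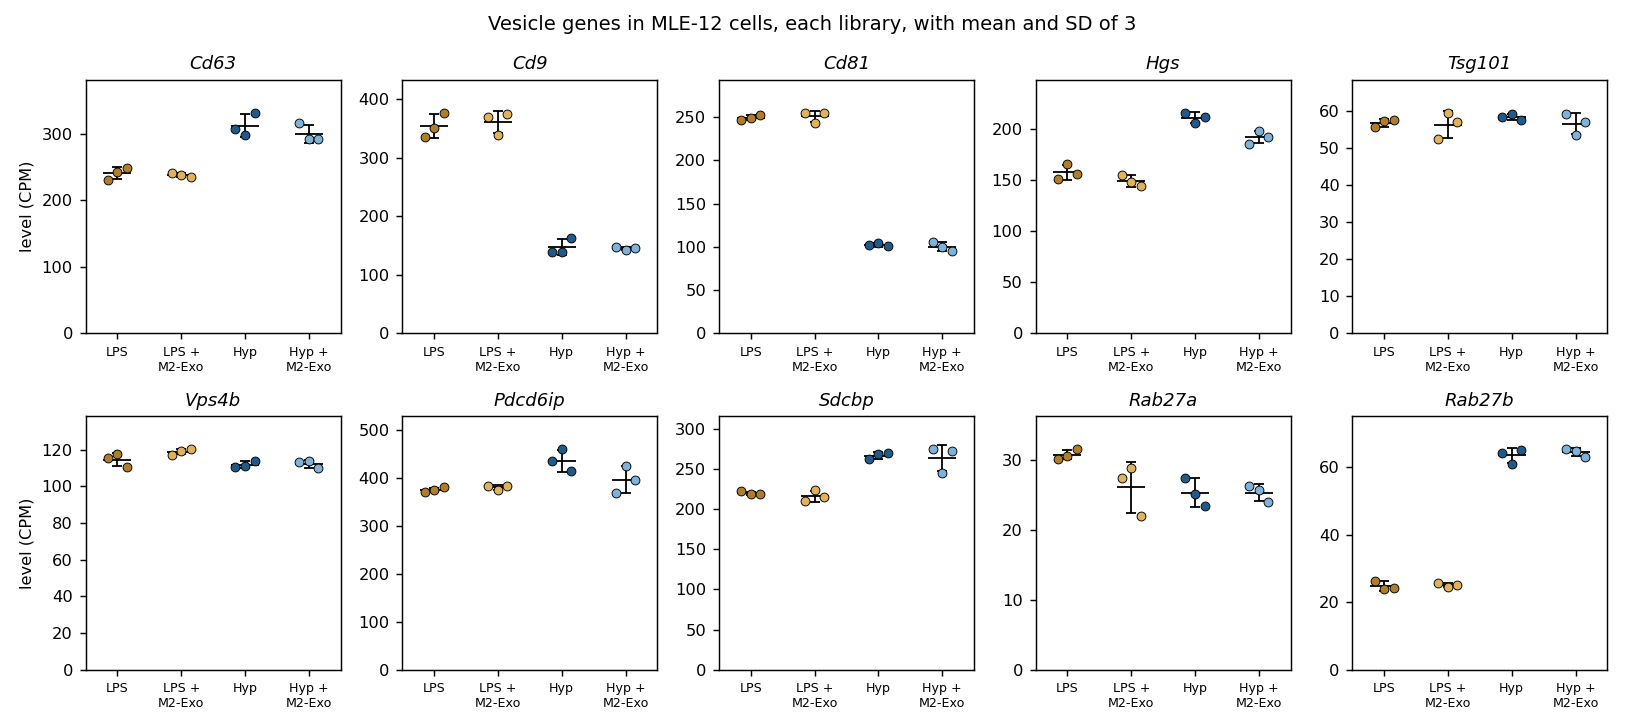
Level of each gene in CPM (y axis, from 0) in each of the 12 libraries (points), by group (x axis), with the mean and SD of 3 libraries in black. Groups with and without M2-Exo lie side by side within each injury, whereas Cd9, Cd81 and Rab27b stand far apart between LPS and Hyp.

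M2-Exo changed none of the 10 genes past the threshold in either injury. In LPS + M2-Exo against LPS, 0 of 10 passed an adjusted p of 0.05 in edgeR's quasi-likelihood test with Benjamini-Hochberg adjustment over 13353 genes, where 0.187% of all genes tested did (0.0524% higher and 0.135% lower). None of the 10 reached an unadjusted p under 0.05 in that comparison, and DESeq2 also called 0. In Hyp + M2-Exo against Hyp, 0 of 10 passed, where 0.101% of the 13815 genes tested did (0.0507% in each direction). Here 1 gene, Hgs, had an unadjusted p under 0.05 with edgeR, and DESeq2 called 0 after adjustment. The median log2 fold change of the 10 genes was 0.016 under LPS and -0.025 under hyperoxia, beside 0.0027 and -0.0021 over all genes tested.

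Cd63 and Tsg101 encode the proteins that the study used as western blot markers of its M2-Exo, beside electron microscopy and nanoparticle tracking. Cd63 measured 230.4, 243.2 and 248.3 CPM in LPS and 241.4, 238.0 and 235.6 CPM in LPS + M2-Exo. In Hyp it measured 307.0, 298.7 and 331.8 CPM, and in Hyp + M2-Exo 316.1, 292.1 and 292.0 CPM. The groups with and without M2-Exo overlapped in both injuries. The log2 fold change of Cd63 was 0.0043 under LPS (95% interval -0.081 to 0.089) and -0.056 under hyperoxia (95% interval -0.17 to 0.059). Tsg101 measured 55.6, 57.3 and 57.5 CPM in LPS and 52.5, 59.5 and 56.9 CPM in LPS + M2-Exo, again overlapping. In Hyp it measured 58.4, 59.1 and 57.6 CPM and in Hyp + M2-Exo 59.3, 53.5 and 57.1 CPM. All 12 libraries thus held Tsg101 between 52.5 and 59.5 CPM, and the libraries with M2-Exo were the lowest and the highest. Its log2 fold change was 0.0054 under LPS (95% interval -0.13 to 0.14) and -0.041 under hyperoxia (95% interval -0.16 to 0.081).

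Of the other genes, 3 came nearest to a change with M2-Exo. Hgs, which recognises ubiquitinated cargo, measured 215.5, 205.3 and 211.7 CPM in Hyp and 185.2, 197.6 and 192.3 CPM in Hyp + M2-Exo. All 3 libraries with M2-Exo lay below all 3 without it, and 16.0% of the genes in that comparison did not overlap in one direction or the other. Its log2 fold change was -0.13 (standard error 0.038, unadjusted p = 0.00751, edgeR adjusted p = 0.541), with an adjusted p between 0.295 and 0.837 over the alternatives run. Under LPS, Hgs measured 150.6, 165.1 and 155.9 CPM without M2-Exo and 154.9, 147.3 and 144.1 CPM with it, and the groups overlapped (log2 fold change -0.061, 95% interval -0.17 to 0.051).

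Rab27a measured 30.2, 30.7 and 31.6 CPM in LPS and 27.5, 28.9 and 22.0 CPM in LPS + M2-Exo. The groups did not overlap, as for 17.2% of the genes in that comparison, and replicate 3 of LPS + M2-Exo was the lowest of the 12 libraries. The log2 fold change was -0.22 (standard error 0.11, edgeR adjusted p = 0.493) and -0.10 without that replicate. Under hyperoxia Rab27a measured 27.5, 25.2 and 23.4 CPM without and 26.4, 25.8 and 24.0 CPM with M2-Exo, with a log2 fold change of 0.0040. Pdcd6ip, which encodes ALIX, measured 435.2, 458.9 and 413.0 CPM in Hyp and 367.7, 424.5 and 394.6 CPM in Hyp + M2-Exo. These groups overlapped, since 1 library with M2-Exo stood above the lowest without it. Pdcd6ip thus had a log2 fold change of -0.14 (standard error 0.060, edgeR adjusted p = 0.589), or -0.084 without Hyp + M2-Exo replicate 1. Under LPS the value was 0.038, and Pdcd6ip measured 370.7 to 379.8 CPM without and 373.9 to 383.5 CPM with M2-Exo.

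For the remaining 5 genes (Cd9, Cd81, Vps4b, Sdcbp and Rab27b), the groups with and without M2-Exo overlapped in both injuries. Their log2 fold changes lay between -0.0054 (Sdcbp) and 0.072 (Vps4b) under LPS and between -0.029 (Cd81) and 0.023 (Rab27b) under hyperoxia. Outside Rab27a, whose interval reached from -0.47 to 0.024, the 95% intervals under LPS all lay between -0.17 (Hgs) and 0.19 (Rab27b) on the log2 scale. Under hyperoxia the 10 intervals lay between -0.28 (Pdcd6ip) and 0.18 (Rab27a). The effect of M2-Exo was also compared between the injuries, by an interaction fitted over all 12 libraries. Of the 10 genes, 0 passed, where 0.0352% of 14187 genes did (0.0141% higher and 0.0211% lower), and 1 had an unadjusted p under 0.05. That gene was Pdcd6ip, whose effect under hyperoxia was lower than that under LPS by a log2 value of -0.17 (standard error 0.069, unadjusted p = 0.0298, edgeR adjusted p = 0.457). DESeq2 also called 0 of the 10 for the interaction.

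**Figure D2:**
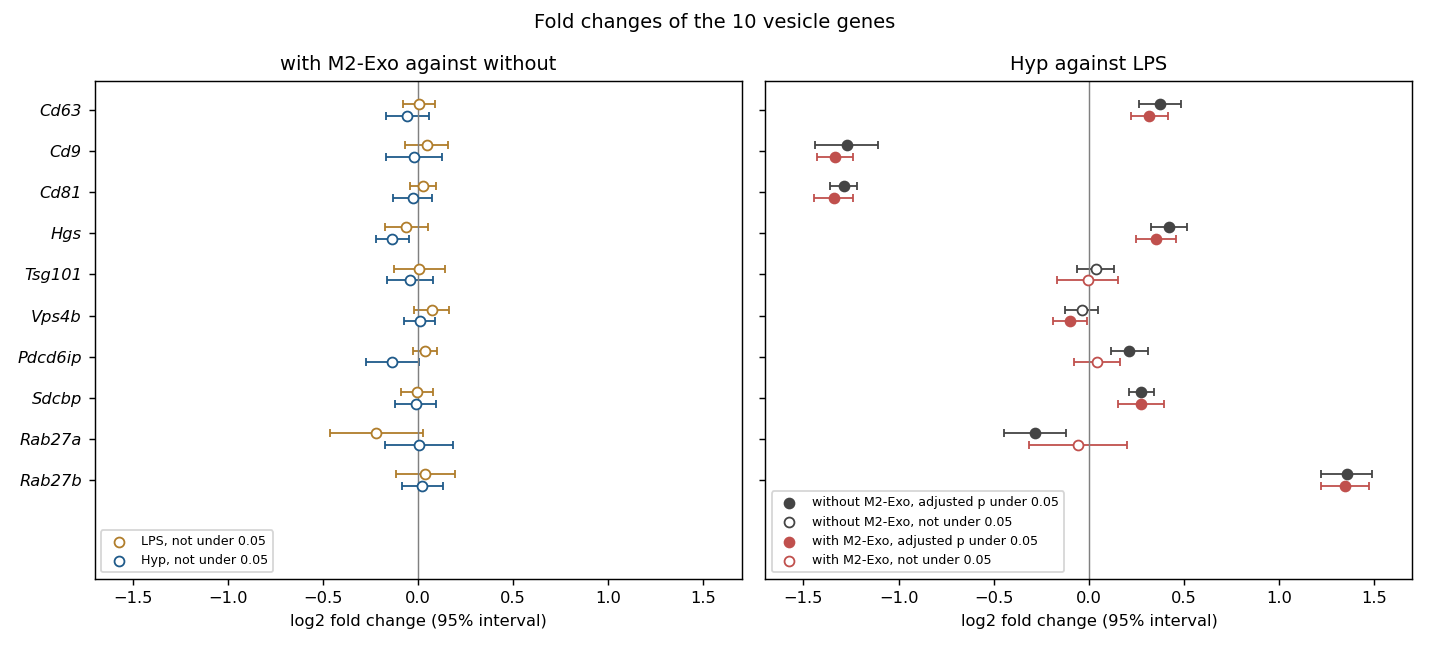
Log2 fold change (x axis) of each of the 10 genes (y axis) with its 95% interval from edgeR. The left panel sets groups with M2-Exo against those without, and all 20 points are open, which marks an adjusted p not under 0.05. The right panel sets Hyp against LPS without and with M2-Exo, where filled points mark an adjusted p under 0.05, and Cd9, Cd81 and Rab27b lie past 1 in size.

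The injuries differed in most of these genes. In Hyp against LPS, 8 of 10 genes passed the threshold, of which 5 rose and 3 fell, where 75.8% of all genes tested passed (38.0% rising and 37.8% falling). In Hyp + M2-Exo against LPS + M2-Exo, 7 of 10 passed, of which 4 rose and 3 fell, where 73.7% of all genes passed (37.1% higher and 36.5% lower). These shares were near those of all genes, so the count says nothing particular about the vesicle genes, and the sizes and directions are given here by role. In Hyp against LPS the median size of the log2 fold change over all genes tested was 0.51, and 24.2% of genes reached 1 in size. Ranked by size among all genes, Cd9, Cd81 and Rab27b stood at percentiles 83.0, 83.4 and 84.6. The other genes called, Cd63, Hgs, Pdcd6ip, Sdcbp and Rab27a, stood between percentiles 22.9 and 42.7, below the median gene. LPS and oxygen differ together between the injuries, so which of them a difference goes with cannot be told apart. The summed macrophage markers differ with them, at 437.0 to 482.8 CPM in LPS and 115.2 to 120.3 CPM in Hyp. A difference in cell content cannot be told apart from the treatments either, and its part was not tested. Each of these comparisons shares its groups with the M2-Exo comparisons above, so their values are set side by side and were not correlated.

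The 3 tetraspanins did not move together. Cd9 measured 335.5, 350.5 and 376.9 CPM in LPS and 139.0, 139.3 and 162.9 CPM in Hyp. All Hyp libraries lay below all LPS libraries, as in 78.8% of the genes in that comparison in one direction or the other, and Hyp replicate 3 stood above the other Hyp libraries. For Cd9 the log2 fold change was -1.27 (standard error 0.071, edgeR adjusted p = 1.29e-06), which is 2.42-fold lower. Cd81 measured 247.0, 249.4 and 252.0 CPM in LPS and 101.7, 104.8 and 100.5 CPM in Hyp. Again no libraries overlapped, and the spread within each group was small. Its log2 fold change was -1.29 (standard error 0.031, edgeR adjusted p = 2.82e-08), or 2.44-fold lower. Cd63, whose values are given above, was higher in all 3 Hyp libraries than in any LPS library, with a log2 fold change of 0.37 (standard error 0.048, edgeR adjusted p = 0.000162). With M2-Exo in both groups the values were -1.33 for Cd9, -1.34 for Cd81 and 0.32 for Cd63, and the libraries again did not overlap, as in 77.0% of the genes in that comparison.

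Because Cd9 and Cd81 fell alike and Cd63 rose, the 250 bases before their starts are shown, from the RefSeq promoter table of GRCm38.p6, each read 5′ to 3′ on the gene's own strand. Capitals mark GGGCGG, the GC box. The Cd9 stretch is chr6:125494761-125495010 on the minus strand, the Cd81 stretch chr7:143052500-143052749 on the plus strand and the Cd63 stretch chr10:128909095-128909344 on the plus strand.
Cd9: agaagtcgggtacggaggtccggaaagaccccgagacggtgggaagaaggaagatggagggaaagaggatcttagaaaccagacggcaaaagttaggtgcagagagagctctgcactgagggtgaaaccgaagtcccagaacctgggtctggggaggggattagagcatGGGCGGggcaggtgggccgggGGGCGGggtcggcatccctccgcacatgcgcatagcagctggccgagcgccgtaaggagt
Cd81: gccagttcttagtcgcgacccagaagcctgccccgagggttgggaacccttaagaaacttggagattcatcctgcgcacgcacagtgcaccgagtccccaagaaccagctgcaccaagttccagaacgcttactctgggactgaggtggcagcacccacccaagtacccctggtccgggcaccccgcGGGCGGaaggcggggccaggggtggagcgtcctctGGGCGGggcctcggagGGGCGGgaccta
Cd63: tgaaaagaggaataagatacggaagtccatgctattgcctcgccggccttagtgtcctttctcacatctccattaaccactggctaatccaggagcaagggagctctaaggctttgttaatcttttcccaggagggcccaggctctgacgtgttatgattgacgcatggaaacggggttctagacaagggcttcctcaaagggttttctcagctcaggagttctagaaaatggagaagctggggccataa

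The table holds windows of 300 bases, 250 before and 50 after a start, and 8 of the 10 genes have at least 1 window there, which were searched on both strands. Cd9 held GGGCGG 2 times and Cd81 3 times, Cd63 held none, and Hgs, Tsg101 and the first of the Rab27a windows held it as well, where 35.7% of all 32851 windows hold it. The window of Cd63 had a GC content of 49.3% with 6 CpG dinucleotides, against 61.3% with 18 for Cd9 and 65.7% with 23 for Cd81, and the median over all windows was 52.7% GC. The AP-1 site TGACTCA was in none of the windows of these genes and in 5.20% of all windows. CCAAT was in the Hgs window and the other Rab27a window (37.4% of all), TATAAA in that of Cd81 (13.6%) and the E-box CACGTG in those of Pdcd6ip and the other Rab27a window (7.15%). TGACNNNGC, the core of the antioxidant response element, was in those of Tsg101, Vps4b and Pdcd6ip and in 12.4% of all windows. These matches describe letters in a window and are not sites shown to be bound. Cd63 itself spans 128908919 to 128912816 on chromosome 10 in the deposited table, so the window lies inside the gene as listed. GENCODE M21 places its start at 128900989, farther still from the window. The windows of Cd9 and Cd81 span their listed starts, so the values of the Cd63 window do not come from a like region. Whether these sequences bear on the levels was not tested.

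The proportions within a library show the same split without any scaling between libraries. Cd63 held 50.4%, 51.0% and 50.2% of the summed FPKM of the 3 tetraspanins in LPS and 49.7%, 51.2% and 48.9% in LPS + M2-Exo. It held 76.6%, 75.9% and 76.2% in Hyp and 76.2%, 75.6% and 75.6% in Hyp + M2-Exo. The LPS and Hyp libraries were far apart, and within each injury the libraries with and without M2-Exo overlapped. The summed level of the 3 tetraspanins, unlike these proportions, does depend on scaling, and FPKM are scaled by the total count alone. It was 447.3 ± 14.3 FPKM in LPS and 408.7 ± 23.2 FPKM in Hyp (SD, n = 3), with overlapping libraries. With M2-Exo it was 452.1 ± 8.52 and 394.9 ± 15.1 FPKM, without overlap. The TMM factors used for CPM were lower in every LPS library than in every Hyp library. Applying them would set the sums farther apart, so the overlap without M2-Exo is no result about the summed level. Cd81 was 0.53 ± 0.026 of Cd9 in LPS, 0.52 ± 0.015 in LPS + M2-Exo, 0.53 ± 0.055 in Hyp and 0.52 ± 0.022 in Hyp + M2-Exo (SD, n = 3), so the proportion of these genes to each other overlapped in all 4 groups while both fell.

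**Figure D3:**
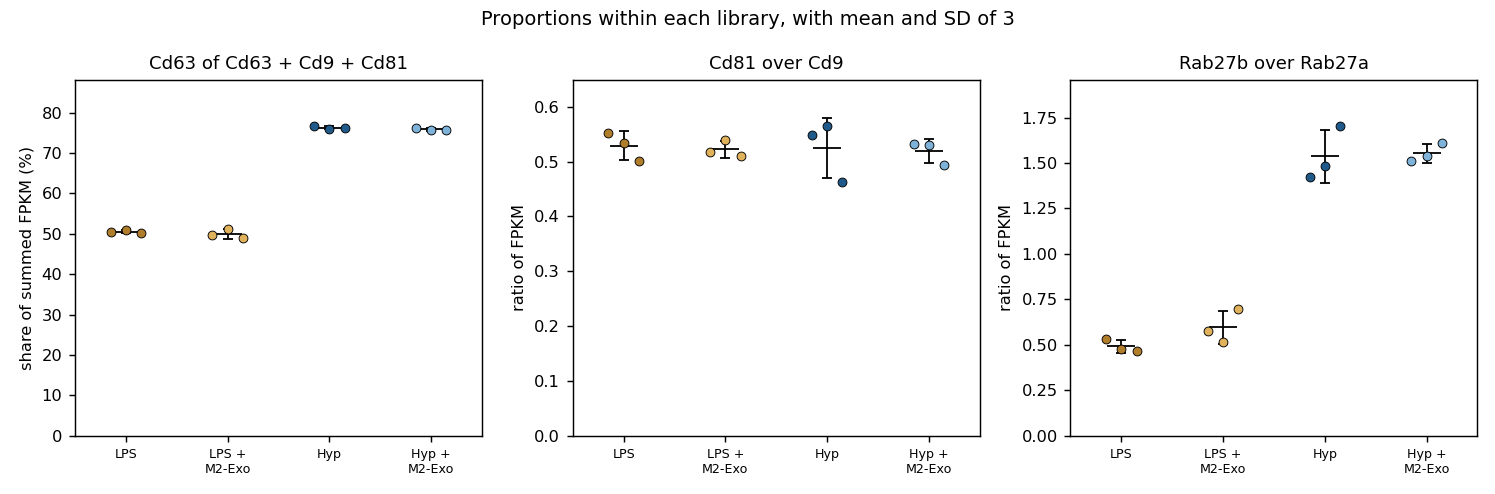
Proportions of FPKM within each library (points) by group (x axis), with the mean and SD of 3 in black: the share of Cd63 among the 3 tetraspanins in percent, Cd81 over Cd9, and Rab27b over Rab27a. The Cd63 share moves from about 50.5% in LPS to 76.2% in Hyp, the Cd81 to Cd9 ratio stays near 0.53, and the Rab27b to Rab27a ratio crosses 1.

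The ESCRT genes differed from each other. Between the injuries, the libraries did not overlap in 78.8% of all genes without M2-Exo and in 77.0% with it. Hgs was higher in all 3 Hyp libraries than in any LPS library, with a log2 fold change of 0.42 (standard error 0.041, edgeR adjusted p = 3.27e-05) without M2-Exo and 0.35 with it. Tsg101, with the values given above, had a log2 fold change of 0.035 without M2-Exo (edgeR adjusted p = 0.469) and -0.0070 with it, and it was not called, although the Hyp libraries all lay just above the LPS libraries. With libraries scaled by their total count alone, the log2 fold change of Tsg101 was 0.12 without M2-Exo (edgeR adjusted p = 0.0230), while the median of all genes moved to 0.099. Vps4b measured 115.5, 117.6 and 110.5 CPM in LPS, 117.2, 119.4 and 120.1 CPM in LPS + M2-Exo, 110.5, 110.9 and 114.0 CPM in Hyp, and 113.2, 113.9 and 109.9 CPM in Hyp + M2-Exo. Its groups overlapped without M2-Exo, where the log2 fold change was -0.038. With M2-Exo they did not, and Vps4b fell by 0.097 on the log2 scale at an edgeR adjusted p of 0.0489, a call that was lost when any 1 of the 6 libraries was left out (adjusted p from 0.0552 to 0.153). With libraries scaled by their total count alone the value for Vps4b was -0.0065. Hgs over Tsg101, as a ratio of FPKM, was 2.37 ± 0.087 in LPS and 3.10 ± 0.10 in Hyp (SD, n = 3).

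Of the genes that join syndecans to ESCRT, Sdcbp measured 221.7, 218.0 and 218.6 CPM in LPS and 261.9, 267.7 and 269.5 CPM in Hyp. All Hyp libraries lay above all LPS libraries, where 78.8% of all genes did not overlap in one direction or the other. For Sdcbp the log2 fold change was 0.28 (standard error 0.028, edgeR adjusted p = 3.64e-05) without M2-Exo and 0.27 (edgeR adjusted p = 0.00175) with it, where the libraries measured 209.8 to 223.2 and 244.9 to 273.9 CPM. Pdcd6ip was higher in Hyp than in LPS with no overlap and a log2 fold change of 0.21 (standard error 0.041, edgeR adjusted p = 0.00166). With M2-Exo the libraries of the injuries overlapped and the log2 fold change of Pdcd6ip was 0.042 (edgeR adjusted p = 0.484). The difference between these values is the interaction given above, which did not pass.

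The RAB27 genes moved in opposite directions in the libraries without M2-Exo. Rab27b measured 26.3, 23.9 and 24.1 CPM in LPS, 25.8, 24.4 and 25.1 CPM in LPS + M2-Exo, 64.2, 61.1 and 65.2 CPM in Hyp, and 65.2, 64.9 and 63.1 CPM in Hyp + M2-Exo. The hyperoxia libraries all lay above 61 CPM and the LPS libraries all below 27 CPM. The log2 fold change of Rab27b in Hyp against LPS was 1.35 (standard error 0.059, edgeR adjusted p = 3.57e-07), or 2.56-fold higher, and 1.34 (standard error 0.054, edgeR adjusted p = 3.12e-07) with M2-Exo. Rab27a fell by 0.28 on the log2 scale without M2-Exo (standard error 0.070, edgeR adjusted p = 0.00631), with no overlap, as in 78.8% of all genes. With M2-Exo its log2 fold change was -0.056 (edgeR adjusted p = 0.670) and the libraries overlapped, and the interaction for Rab27a was 0.23 (edgeR adjusted p = 0.633). The ratio of Rab27b to Rab27a in FPKM was 0.49 ± 0.036 in LPS, 0.60 ± 0.092 in LPS + M2-Exo, 1.54 ± 0.15 in Hyp and 1.55 ± 0.050 in Hyp + M2-Exo (SD, n = 3). Every LPS library thus held more Rab27a than Rab27b per length, and every hyperoxia library the reverse.

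Reads shared with other genes limit some of these values. The library kit does not mark strand, so reads from overlapping genes on opposite strands cannot be told apart. Sdcbp overlaps Nsmaf, which had 789 to 1162 counts in a library. Cd81 overlaps R74862, with 54 to 123 counts, and Cd9 overlaps Gm28809 and Gm26728, with at most 12 counts each. Cd63-ps shares 858 bases with Cd63 at 99.0% identity and took 17.8% to 26% of the counts of the pair. Tsg101-ps shares 1176 bases with Tsg101 at 99.6% identity and took 21.2% to 26% of theirs. The share of Cd63-ps overlapped between all 4 groups, and that of Tsg101-ps was 23.1% to 24.3% in LPS and 24.5% to 26% in Hyp + M2-Exo. Vps4b shares 1329 bases with Gm4939 at 96.0% identity, and the annotation lists another Hgs entry that is identical over 2903 bases, neither of which was analysed here. Rab27b shares stretches of at most 134 bases, at up to 96.3% identity, with 13 other genes. Of these, Glo1 had 422 to 625 counts in a library, Gfod2 474 to 704 and Zc3h12b 117 to 172. Rab27a shares at most 155 bases, at up to 99.4% identity, with 4 other genes, of which Fibp had 477 to 606 counts. How reads were divided between genes that share a stretch is not given in the sources used here.

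The wider pathway was described with 7 lists of genes, 132 in all, which do not include the 10 genes. With M2-Exo, 0 of 125 list genes tested passed under LPS and 0 of 126 under hyperoxia, beside 0.187% and 0.101% of all genes tested. An unadjusted p under 0.05 in edgeR was reached by 18 and 10 of them, beside 11.1% and 8.48% of all genes. DESeq2 called 1 list gene in each injury, where it called 125 of all 13353 genes under LPS and 37 of 13815 under hyperoxia. Under LPS it was Cd53, a leukocyte tetraspanin, at a log2 fold change of -0.46. Under hyperoxia it was Lgals3bp, a secreted glycoprotein often found on vesicles, at 0.49. Both were named after their values were seen. Lgals3bp measured 29.5, 28.9 and 29.5 CPM in Hyp and 48.4, 38.1 and 36.8 CPM in Hyp + M2-Exo. All 3 libraries with M2-Exo were higher, where 16.0% of all genes did not overlap in one direction or the other. Its edgeR adjusted p was 0.419. Among list genes, Cav1, the coat protein of caveolae, had the log2 fold change farthest from 0 under hyperoxia and was also named after its values were seen. It measured 67.8, 17.4 and 65.5 CPM in Hyp and 19.2, 16.2 and 13.1 CPM in Hyp + M2-Exo. Hyp replicate 2 lay among the libraries with M2-Exo, and the log2 fold change of -1.63 had an edgeR adjusted p of 0.541. Without that replicate it was -2.04, with an adjusted p of 0.00537.

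Between the injuries the lists differed in direction. Their counts are read against all genes tested, of which 38.0% were called higher and 37.8% lower in Hyp than in LPS, and 37.1% and 36.5% with M2-Exo. Of 14 further tetraspanins and their partner proteins, 13 were lower in Hyp than in LPS and 0 higher, where 37.8% of all genes were lower, with a median log2 fold change of -0.73 beside 0.0091 over all genes tested. Tspan9 fell by 1.16 on the log2 scale (edgeR adjusted p = 7.43e-08), and Tspan15, a partner of the protease ADAM10, fell by 1.11 (edgeR adjusted p = 2.91e-07). With M2-Exo 13 were again lower and 0 higher, with Tspan15 at -1.06 and Tspan8 at -1.21. The 1 not called in either comparison was Ptgfrn, a partner of CD9 and CD81, at 13.2 CPM in LPS and 13.1 CPM in Hyp. Cd9 and Cd81 thus went with the other tetraspanins, and Cd63 was the only one of the 17 genes of this kind that was called higher in Hyp.

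Of 27 further ESCRT genes tested, 12 were higher and 4 lower in Hyp, with a median of 0.19. The share called was 59.3%, beside 75.8% of all genes. Vps37b, another ESCRT-I subunit, rose by 1.10 on the log2 scale (edgeR adjusted p = 3.02e-07), and Stam, which pairs with HGS in ESCRT-0, rose by 0.91 (edgeR adjusted p = 4.17e-07). With M2-Exo the counts were 13 higher and 6 lower, or 70.4% called beside 73.7% of all genes. Vps37b was then at 1.17 and Stam at 0.98. Of 12 genes around syndecan, syntenin and ceramide, 3 were higher and 5 lower in Hyp, or 66.7% called beside 75.8% of all genes. Sdc1, a syndecan that carries heparan sulfate, fell by 1.23 (edgeR adjusted p = 3.21e-07), and Hpse, the heparanase that trims it, fell by 0.82 (edgeR adjusted p = 9.62e-07), while Sdcbp, which binds syndecans, was higher. With M2-Exo the counts were 4 higher and 7 lower, or 91.7% called beside 73.7% of all genes. Sdc1 was then at -1.21 and the phospholipase Pld2 at -0.75.

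Of 21 RAB genes and RAB27 effectors tested, 7 were higher and 8 lower in Hyp, and these 71.4% were near the 75.8% of all genes. Mlph, the effector melanophilin, which ties RAB27A to a myosin motor, fell by 1.44 (edgeR adjusted p = 1.25e-07), and Rab9, of late endosomes, fell by 0.88 (edgeR adjusted p = 2.23e-06). With M2-Exo the counts were again 7 and 8, with Mlph at -1.45 and Rab38, of lysosome-related organelles, at -2.20. Of 20 docking and fusion genes, 7 were higher and 6 lower in Hyp, or 65% beside 75.8%. The membrane fusion proteins Stx3 and Ykt6 rose by 1.89 (edgeR adjusted p = 3.22e-08) and 0.83 (edgeR adjusted p = 1.58e-07). With M2-Exo 9 were higher and 6 lower, or 75% beside 73.7%, with Stx3 at 2.01 and Exoc5, of the exocyst, at 1.00.

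Of 18 genes for common vesicle cargo, 2 were higher and 14 lower in Hyp, with a median of -0.54, where 38.0% of all genes were higher and 37.8% lower. Lgals3bp fell by 2.12 (edgeR adjusted p = 5.41e-08), whereas Slc3a2, the heavy chain of CD98, rose by 1.28 (edgeR adjusted p = 1.18e-07). With M2-Exo 2 were higher and 15 lower, with Adam10 at -1.61 and Gapdh at -1.67. Gapdh has near-identical copies in the mouse genome, so its counts are uncertain. Of 14 genes tested for vesicle entry, 2 were higher and 10 lower in Hyp, with a median of -0.53, beside the same shares of all genes. Itgb5, an integrin subunit, fell by 1.43 (edgeR adjusted p = 1.23e-07), and Axl, a receptor for phosphatidylserine on membranes, fell by 1.73 (edgeR adjusted p = 4.89e-07). With M2-Exo 2 were higher and 11 lower, with Axl at -1.97 and Itgb5 at -1.47. Over all 126 list genes tested, 33 were higher and 60 lower in Hyp without M2-Exo, and 37 higher and 66 lower with it. In all 73.8% and 81.7% of them were called, beside 75.8% and 73.7% of all genes, so the number called is no result about the vesicle pathway.

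**Figure D4:**
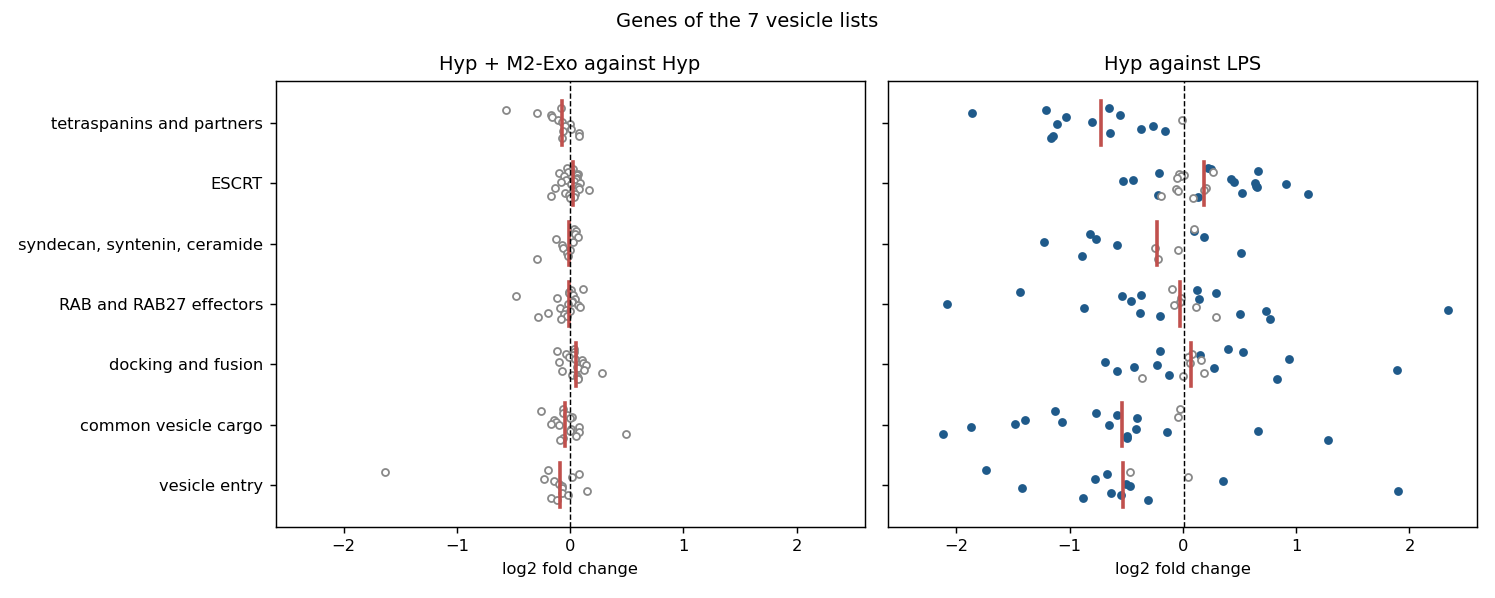
Log2 fold change (x axis) of each gene of the 7 lists (rows) in Hyp + M2-Exo against Hyp (left) and in Hyp against LPS (right). Filled points have an adjusted p under 0.05 in edgeR, red bars are list medians, and the dashed line is the median of all genes tested. On the left 0 points are filled, and on the right the tetraspanin, cargo and entry lists have medians of -0.73, -0.54 and -0.53.

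The macrophage markers moved between the injuries in the direction of Cd9, Cd81 and the other tetraspanins, with 9 of the 11 tested lower in Hyp, 1 higher and a median log2 fold change of -1.99, where 37.8% of all genes were lower and 38.0% higher. In LPS + M2-Exo against LPS, 9 of the 10 macrophage markers tested had a log2 fold change below 0, beside 6533 of all 13353 genes. Their median was -0.32, 0 were called, and 7 had an unadjusted p under 0.05 in edgeR, which 11.1% of all genes reached. In Hyp + M2-Exo against Hyp, 9 of 11 were below 0, beside 7004 of 13815 genes. There the median was -0.082 and 0 had an unadjusted p under 0.05 in edgeR, which 8.48% of all genes reached. In the interaction 0 of 12 markers reached it. Of the lung epithelial markers, 5 of the 6 tested were lower in Hyp and 1 (Sftpb) was higher, beside the same 37.8% and 38.0% of all genes, and their summed level was 363.5 to 375.3 CPM in LPS and 195.7 to 208.5 CPM in Hyp. The part of these markers in the vesicle gene results was not tested.

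The profiles nearest to Cd63 and Tsg101 were sought among the other 9 genes and the list genes, by the root mean square difference of log2 CPM over the 12 libraries, with each gene centred on its own mean. For Cd63 they were Dnm2, the dynamin that pinches vesicles from membranes (0.050), and Sdcbp (0.067), beside a spread of 0.18 for Cd63 about its own mean. Cd63 differed mainly between the injuries (log2 fold change 0.37 in Hyp against LPS), where 38.0% of all genes were called higher in Hyp. Nearness to Cd63 thus means mainly a rise of like size in Hyp. For Tsg101 they were Cltc, the clathrin heavy chain (0.050), and Exoc4, of the exocyst (0.053), beside a spread of 0.054 for Tsg101 itself, so those genes are alike mainly in moving little.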

How the data were processed

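RNA was measured by sequencing of poly(A) libraries in 12 samples, 3 per group. The authors filtered reads with Seqtk and mapped them with HISAT2 2.0.4. The submitters' processing notes also name StringTie 1.3.0, edgeR and GRCm38. The annotation and the counting rule are not given in the sources used here. The deposited table holds raw read counts of each gene beside FPKM that the authors computed. These FPKM followed from the counts to a relative 0.000928, and 0 columns of samples were left unused. RNA extraction is given as RNeasy in the labels and as Trizol in the methods.

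Counts were tested in R 4.3.3 with edgeR 4.0.16 (filterByExpr, TMM, quasi-likelihood F test) on the 6 libraries of each comparison, and in all 12 for the interaction. P-values were adjusted by Benjamini-Hochberg over all genes tested. CPM were counts over the TMM-scaled library size. Shares of genes whose libraries did not overlap are over genes that also passed the filter in all 12 libraries. BLASTN 2.17.0 found stretches shared with other GENCODE M21 transcripts. The biological coefficient of variation was 8.78% to 9.41%, and chi-square over its degrees of freedom between replicates was 7.35 to 12.4, so no pair of libraries agreed within sampling noise. The total per library, 16021833 to 24074616 counts, limits counting error only.

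The 10 genes, the lists and the tests were chosen with earlier results of these data known. Named genes are the 10, up to 2 called genes per list and comparison with the smallest p, and the 2 profiles nearest to Cd63 and Tsg101. Of 156 list and marker genes, 154 were in the table. Alternatives were RLE or library size in place of TMM, no filter or at least 10 counts in every library, DESeq2 1.42.0, all 12 libraries, the replicate number as a block, limma 3.58.1 on log2(FPKM + 1) or log2(FPKM + 0.1) at a mean FPKM of at least 1, and each library left out. Protein sequences and the sequence of Rab27b are not reported here.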

Additional observations from a re-analysis of the deposited data

How the results depend on the processing

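The count of the 10 genes called was 0 in both M2-Exo comparisons and in the interaction under every alternative run, with each library left out included. It was 8 or 9 in Hyp against LPS and 6 or 7 in Hyp + M2-Exo against LPS + M2-Exo. Vps4b in the latter was not called with library size alone, no filter, at least 10 counts, DESeq2, the replicate block or FPKM, and Tsg101 in Hyp against LPS was called with library size alone and with FPKM. The cause was not tested. No called gene of the 10 changed sign under any alternative. Of 360 fold changes with 1 library left out, 34 that were not called changed sign, and of 420 under other alternatives 20 did.

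The number of list genes called with M2-Exo, 0 in each injury and in the interaction, was 1 with DESeq2 in all 3 (Cd53, then Lgals3bp in the other two) and ranged from 0 to 1 with 1 library left out. That 1 was Rab2b without LPS + M2-Exo replicate 2 and Cav1 without Hyp replicate 2. In the interaction it was Cav1 without Hyp replicate 2 and Lgals3bp without Hyp + M2-Exo replicate 1. Over all genes, 25 (LPS), 14 (Hyp) and 5 (interaction) were called, against 125, 37 and 67 with DESeq2, and 12 and 2 in the fits of all 12 libraries. Without a filter the interaction had 13. With 1 library left out the counts were 21 to 39, 12 to 21 and 4 to 34, with the 39 without LPS replicate 1 and the 34 without Hyp + M2-Exo replicate 1. Library size alone moved the median of all genes in Hyp against LPS from 0.0091 to 0.099 and the higher share of called genes from 50.2% to 56.1%, and log2(FPKM + 0.1) moved that median to 0.11.

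Groups share replicate numbers, and the deviations of same-numbered libraries had correlations from -0.018 to 0.050, beside -0.078 to 0.036 for differently numbered ones. No clear pairing by number was seen, but such correlations cannot exclude a shared culture or day. With the replicate block, genes called went from 25 to 6, 14 to 8, 10465 to 10259, 10062 to 9864 and 5 to 3, and genes called of the 10 stayed at 0, 0, 8 and 0 and went from 7 to 6 in Hyp + M2-Exo against LPS + M2-Exo. Among the 10 genes, the 95% intervals of the M2-Exo comparisons reached as far as -0.47 (Rab27a under LPS), so with 3 libraries a group a change of that size in Rab27a is compatible with the values.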
